A study of Mus musculus with 15 samples.

Results

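The genes described here encode the eukaryotic translation initiation factors (eIFs) of mouse CD8+ T cells. Every gene whose symbol starts with Eif followed by a digit was taken, from both FPKM tables of the series, which gave 55 of the 11836 genes of these tables. Of these, 54 are among the 11262 genes of the first table and 55 among the 11211 genes of the second. The symbols cover 41 initiation factors and their subunits, 8 regulators (3 eIF4E-binding proteins, the eIF4E transporter and the 4 kinases that phosphorylate eIF2α), 2 proteins that carry an eIF name and act elsewhere, and 4 Argonautes listed under their old Eif2c symbols. Eif2s3y, Eif3j1 and Eif3j2 have no entry in either table and were not analysed here.

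Translation of most mRNAs starts when eIF4F, made of the cap-binding protein eIF4E, the scaffold eIF4G and the RNA helicase eIF4A, takes hold of the 5′ cap, while eIF2 brings the initiator tRNA to the small ribosomal subunit together with eIF1, eIF1A, eIF5 and the large complex eIF3. 4E-BPs hold eIF4E away from eIF4G until the kinase mTORC1 phosphorylates them, and phosphorylation of eIF2α turns eIF2 into an inhibitor of its own exchange factor eIF2B. T cells that meet antigen leave quiescence, grow and make far more protein, and IL-2 signalling is among the inputs that control this growth.

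All cells came from LCMV-P14 TCR transgenic mice, whose T cells recognise the gp33-41 peptide. The first table holds 3 biological replicates each of naïve CD8+ T cells taken directly ex vivo, of cells activated for 24 h with 2 ng/mL IL-12, 20 ng/mL IL-2 and 100 ng/mL peptide (TCR activated), and of cells activated in the same way with 10 µM of the PI3K p110δ inhibitor IC87114 (PI3Kdi). Lymph nodes of 3 female mice aged 9 to 13 weeks were combined for each replicate, and the cells were divided between the 3 conditions and collected by flow sorting. The second table holds 3 replicates each of cytotoxic T lymphocytes (CTL) that were activated for 48 h, grown for 4 days in 20 ng/mL IL-2, washed on day 6 and then kept for 24 h with 20 ng/mL IL-2 or without IL-2. The age and the pooling of the mice used for the CTL are not given in the labels. Levels are FPKM, read counts scaled to transcript length and library size, which are relative to the other mRNA of the same library, so the amount of any mRNA per cell was not measured, and in such bulk samples fewer cells of a type and less RNA per cell cannot be told apart. Read totals are not given, and the spacing of the lowest FPKM values put the libraries at an estimated 9.8 to 14.6 M reads after normalisation, where 1 read on 1 kb equals 0.068 to 0.102 FPKM.

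The CD8 T cell label held in every library. All 7 defining genes (Cd8a, Cd8b1, Cd3d, Cd3e, Cd3g, Cd2 and Lck) were present, with a summed level of 4137, 4480.5 and 4353 FPKM in naïve cells, 1059.7, 966 and 913 after activation, 1249.5, 1312 and 1147 with PI3Kdi, 1606, 1663 and 1601 in CTL with IL-2 and 2751, 2599 and 2862 without it. The effector genes Gzmb, Prf1, Ifng and Il2ra summed to 42.9, 44.3 and 46.9 FPKM in naïve cells, 6678, 5729 and 5297 after activation, 1132, 895 and 916 with PI3Kdi, and, in CTL, 9577, 11277 and 12528 with IL-2 against 621, 628 and 373 without it. Neither sum overlapped between the groups of a table. Single effector genes differed from the sum, since Prf1 fell with activation (log2 -1.40 ± 0.40, adjusted p = 0.00666, or -0.94 and under 2-fold without replicate 3) and Il2ra had 0.03 ± 0.15 (adjusted p = 0.929) with PI3Kdi. Of the B cell genes, 4 of 5 are in the first table (Pax5 is not), and they summed to 20.9, 26.3 and 22.2 FPKM in naïve cells, most of it Cd79b at 20.3, and to at most 7.12 in activated cells. In CTL, the B cell list is represented by Cd79b alone, at 6.30, 3.96 and 2.74 FPKM with IL-2 and 20.6, 15.7 and 10.8 without it. Removal of IL-2 raised Cd79b by a log2 of 1.87 ± 0.30 (adjusted p = 3.69e-04). Of 6 myeloid genes the first table has only Itgam, at no more than 0.30 FPKM, and the CTL table has Itgax and Itgam, which summed to 0.50, 0.59 and 0.72 FPKM with IL-2 and 7.59, 9.06 and 9.27 without it, while Lyz2, Csf1r, Cd14 and Flt3 have no entry in either. Both Itgax (log2 3.51 ± 0.23, adjusted p = 1.17e-06) and Itgam (3.44 ± 0.21, adjusted p = 1.02e-06) rose without IL-2. The CD4 list gave Foxp3 and Cd40lg in the first table, mostly Cd40lg. It summed to 9.59, 10.65 and 10.38 FPKM in naïve cells, 31.26, 24.64 and 19.44 after activation and 4.66, 4.45 and 6.54 with PI3Kdi. In CTL it gave Cd4 and Cd40lg, with a sum of 8.80, 8.65 and 4.78 FPKM with IL-2 and 14.45, 14.52 and 10.46 without it, again mostly Cd40lg, and Cd4 rose (log2 2.29 ± 0.43, adjusted p = 9.93e-04, or 0.95 with a pseudocount of 1). NK cells were represented by Klrb1c in CTL alone (1.88, 1.20 and 1.87 FPKM with IL-2 and 2.17, 2.65 and 3.41 without it), no erythroid gene is in either table, and of the stromal and endothelial genes only Pecam1 was found, which naïve T cells express too, at a mean of 60.6 FPKM in naïve cells, 2.76 after activation and 6.24 with PI3Kdi, and in CTL at 27.4 with IL-2 and 55.2 without it, where it rose by 2.02-fold (adjusted p = 7.55e-05), though under 2-fold with a pseudocount of 1 (log2 0.99) or without replicate 3 (0.79). The part of other cell types in the eIF results was not tested.

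After 24 h of activation with peptide, IL-2 and IL-12, 25 of 41 initiation factors and subunits had risen over naïve cells (61%, beside 25.0% of all genes). The parts of the TCR, the cytokines and the culture cannot be told apart in this design. A gene is called risen or fallen here when limma gave an adjusted p under 0.05 and a fold change above 2 or below 0.5. Between TCR activated and naïve cells 29 of 54 genes rose (53.7%), against 25.0% of all genes tested. None fell, against 23.7% of all genes (48.7% of all genes changed either way), and at an unadjusted p under 0.05 limma still gave 0 genes lower by that fold. At any fold, 39 were higher and 8 lower at an adjusted p under 0.05, against 40.9% and 39.8% of all genes. The median log2 fold change was 1.20 over the 54 genes and 0.01 over all genes. Over the 41 initiation factors and subunits the median was 1.33, 0 fell, and limma gave 0 of them lower by that fold at an unadjusted p under 0.05. Rescaling the libraries to equal medians shifted all genes by 0.12 on the log2 scale. The summed level of the 41 factors was 4181, 4706 and 4175 FPKM in naïve cells and 8354, 9427 and 9807 after activation.

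The inhibitor left most of these levels close to those of TCR activated cells. With PI3Kdi, 1 of 54 genes rose against TCR activated cells (Eif4e3), beside 3.04% of all genes, and 1 fell (Eif4ebp1), beside 2.10%. These 2 genes are 3.7% of the 54, near the 5.14% of all genes that changed either way. At any fold, 2 were higher (9.35% of all genes) and 6 lower (8.19%), or 1 and 8 after rescaling to equal medians. Leaving out replicate 1, 2 or 3 gave 5, 0 and 1 genes lower and 1 gene higher each time, so these counts depended on the libraries used. The log2 fold change was negative for 42 of the 54 genes (50.9% of all genes), with a median of -0.14, against -0.01 over all genes. At an unadjusted p under 0.05 limma gave 5.56% of the 54 higher and 24.1% lower, beside 16.1% and 15.4% of all genes. For the 41 factors these shares were 2.44% and 26.8%. The summed level of the 41 factors with PI3Kdi was 8324, 8150.3 and 8501 FPKM, which overlapped the TCR activated libraries and lay far above the naïve ones. Each of these sums was lower than that of the TCR activated library of the same number, in replicate 1 only slightly. Both comparisons of the first table use the same 3 TCR activated libraries, so their values are set side by side here and not correlated.

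CTL that lost IL-2 for 24 h had less mRNA of many of the same factors. Without IL-2, 14 of 55 genes fell (25.5%), against 13.9% of all genes, and 1 rose (the Argonaute gene Eif2c4), against 14.3%. At any fold, 33 were lower (36.6% of all genes) and 10 higher (35.2%), and the median log2 fold change was -0.48, against 0.00 over all genes. Among the 41 initiation factors and subunits 12 fell and 0 rose, with a median of -0.57, and 6 of the 41 were higher at an unadjusted p under 0.05 in limma (14.6%, beside 36.3% of all genes), all by less than 2-fold. Their summed level was 6166, 6426 and 6521 FPKM with IL-2 and 4463, 4345 and 4413 without it, groups that did not overlap. Abundant genes weigh most in this sum. Mean Eif5a went from 837.8 to 180.8 FPKM and mean Eif4a1 from 701.7 to 223.9, while the 12 eIF3 genes summed to a mean of 2436.7 with IL-2 and 2421.9 without it. The tables share no library, and all 14 genes that fell without IL-2 had risen with TCR activation. They are 48.3% of the 29 that rose, whereas of the 10637 genes found in both, 76.6% of those that fell without IL-2 had risen with TCR activation and these made up 42.8% of those that rose.

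**Figure D1:**
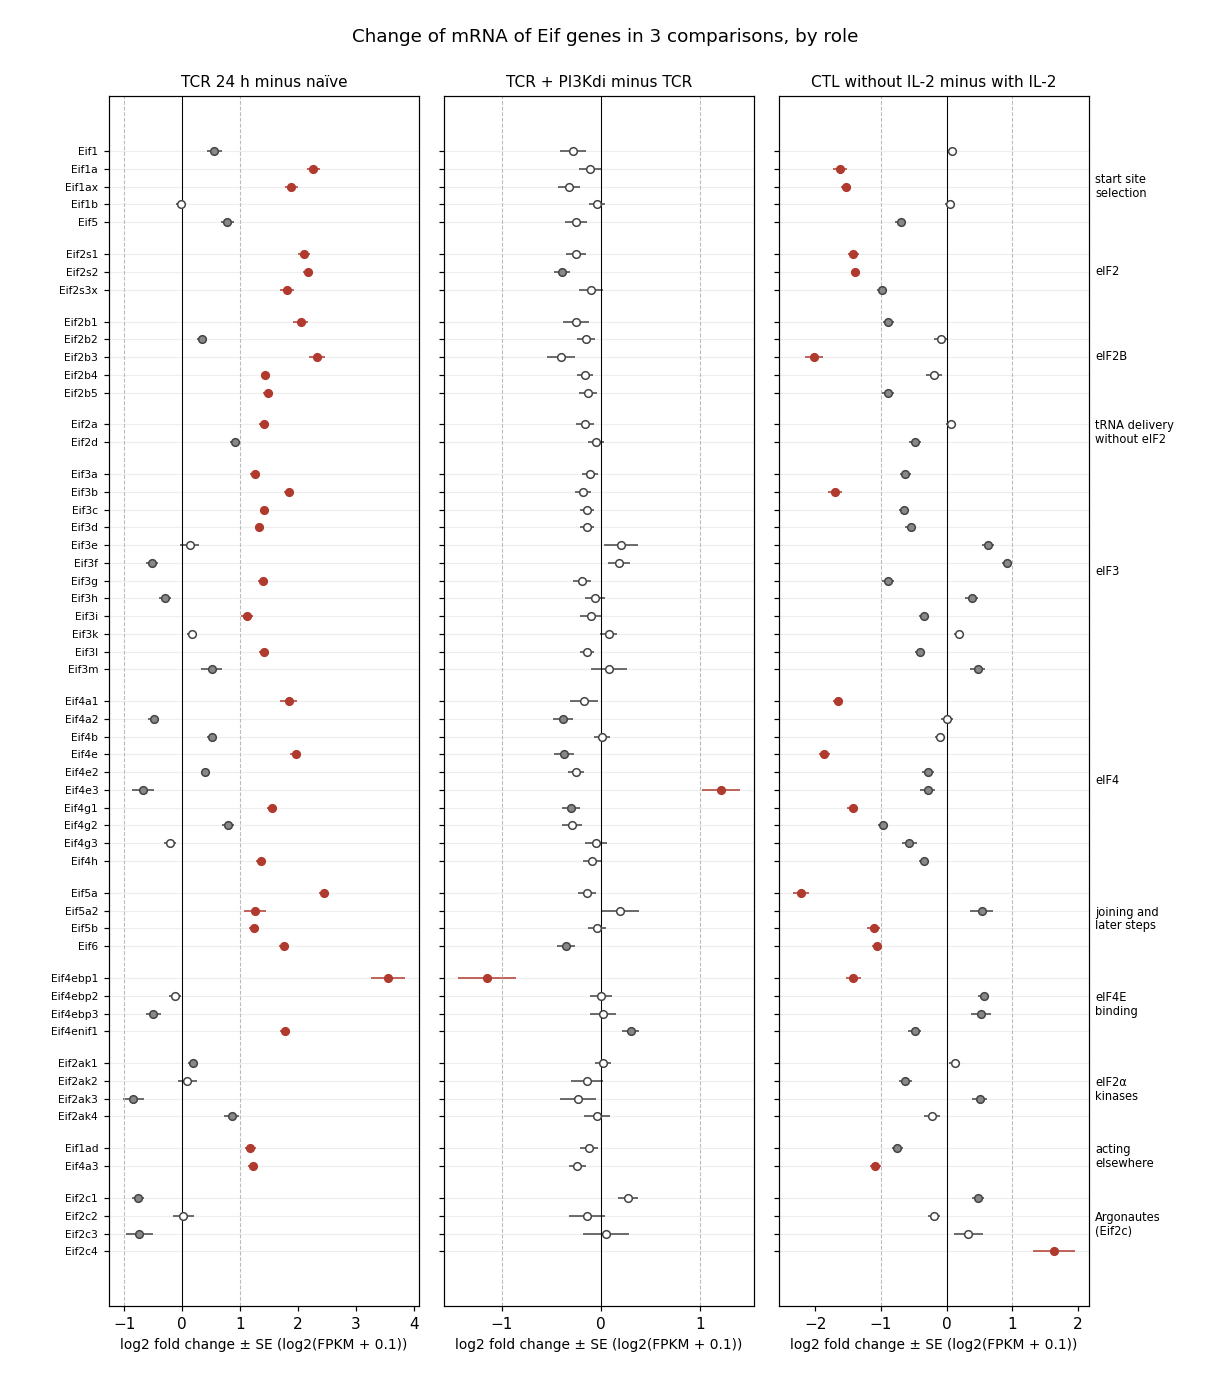
Log2 fold change of each Eif gene (points, bars are SE) in the 3 comparisons, grouped by role, on log2(FPKM + 0.1). With TCR activation 29 of 54 genes rose by over 2-fold, with PI3Kdi 2 of 54 changed, and without IL-2 14 of 55 fell.

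Of the 10 genes of the eIF4 group, 4 rose with TCR activation (40%, beside 25.0% of all genes): Eif4e, Eif4a1, Eif4g1 and Eif4h, one for each part of eIF4F and a helicase cofactor. Eif4e (Entrez 13684, chromosome 3 from 138526191 to 138559696 of mm10), which encodes the protein that grips the cap, had 23.8, 23.04 and 22.2 FPKM in the 3 naïve libraries, 77.03, 99.2 and 95.9 in the 3 TCR activated libraries and 68.7, 70.1 and 70.5 with PI3Kdi. The naïve libraries were all below the activated ones, and those with PI3Kdi were all below those without. The log2 fold change was 1.96 ± 0.10 (adjusted p = 6.55e-09) with TCR activation, 3.9-fold, and -0.37 ± 0.10 (adjusted p = 0.0237) with PI3Kdi. This last call was lost without replicate 2 (log2 -0.30, adjusted p = 0.267) and without replicate 3 (-0.33, adjusted p = 0.153). In CTL Eif4e had 53.5, 53.4 and 58.3 FPKM with IL-2 and 15.6, 15.6 and 14.1 without it. The groups lay far apart, and Eif4e fell by 3.63-fold when IL-2 was removed, a log2 fold change of -1.86 ± 0.082 (adjusted p = 2.60e-07).

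Eif4a1 (Entrez 13681, chromosome 11 from 69666936 to 69672423), the main RNA helicase of eIF4F, was among the most abundant mRNAs of the activated cells. It had 286, 304 and 263 FPKM in the 3 naïve libraries, 794, 1152 and 1152 in the 3 TCR activated libraries and 921, 894 and 901 with PI3Kdi. TCR replicate 1 stood below the other two activated libraries and still far above the naïve ones. By mean FPKM Eif4a1 ranked 176 of all genes in naïve cells, 66 after activation and 73 with PI3Kdi. It rose by 3.58-fold with activation (log2 1.84 ± 0.14, adjusted p = 2.04e-07), and the difference with PI3Kdi was -0.17 ± 0.14 (adjusted p = 0.446) on the log2 scale. In CTL the same gene had 725, 683 and 697 FPKM with IL-2 and 237, 224 and 210.3 without it, going from rank 105 to rank 263. All libraries without IL-2 were below all those with it, and the log2 fold change was -1.65 ± 0.079 (adjusted p = 3.46e-07). Its paralogue Eif4a2, a helicase of nearly the same sequence, went the other way on activation. Eif4a2 had 179.6, 196 and 158 FPKM in the 3 naïve libraries, 137, 115 and 127 in the 3 TCR activated libraries and 91.1, 99.7 and 98.98 with PI3Kdi. The 3 groups did not overlap and lay in falling order, with log2 fold changes of -0.49 ± 0.10 (adjusted p = 6.94e-04) and -0.38 ± 0.10 (adjusted p = 0.0225), neither reaching 2-fold. The second of these was -0.28, -0.47 and -0.40 without replicate 1, 2 or 3, with an adjusted p of 0.182, 0.0776 and 0.0789. In CTL Eif4a2 had 57.7, 47.1 and 52.9 FPKM with IL-2 and 53.9, 50.8 and 52.4 without it, overlapping groups with a log2 fold change of 0.00 ± 0.088 (adjusted p = 0.999).

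Scaffold genes of eIF4F were likewise unequal. Eif4g1 (Entrez 208643, chromosome 16 from 20672720 to 20692883), the scaffold that joins eIF4E, eIF4A and eIF3, had 114, 102 and 126 FPKM in the 3 naïve libraries, 326, 338 and 332 in the 3 TCR activated libraries and 268, 262 and 282 with PI3Kdi. The activated libraries were all above the naïve ones and all above those with PI3Kdi, with log2 fold changes of 1.55 ± 0.088 (adjusted p = 2.03e-08) and -0.30 ± 0.088 (adjusted p = 0.0405). Without replicate 1, 2 or 3 the inhibitor comparison gave -0.30, -0.26 or -0.33, with an adjusted p of 0.152, 0.258 or 0.0984. In CTL Eif4g1 had 206, 229 and 237 FPKM with IL-2 and 87.5, 85.5 and 76.7 without it, a fall of 2.69-fold (log2 -1.43 ± 0.085, adjusted p = 8.83e-07). Eif4g2, also called DAP5, lacks the eIF4E-binding part and serves cap-independent starts. It had 181, 174 and 171 FPKM in the 3 naïve libraries, 260.4, 322 and 335 in the 3 TCR activated libraries and 247, 245 and 255 with PI3Kdi. Its activated libraries were above the naïve ones, by 0.79 ± 0.10 (adjusted p = 1.42e-05) on the log2 scale, under 2-fold. With PI3Kdi the log2 difference was -0.29 ± 0.10 (adjusted p = 0.064). Without replicate 1 it was -0.40 (adjusted p = 0.0315), and after rescaling to equal medians -0.31 (adjusted p = 0.0467). In CTL Eif4g2 had 216, 218 and 246 FPKM with IL-2 and 119, 113 and 114 without it. These groups did not overlap, and the log2 fold change of -0.97 ± 0.078 (adjusted p = 4.16e-06) lay just short of 2-fold, passing it without replicate 1 (-1.03, adjusted p = 5.16e-05). Eif4g3, a second full-length scaffold, had 49.2, 44.3 and 57.2 FPKM in the 3 naïve libraries, 49.1, 39.6 and 41.2 in the 3 TCR activated libraries and 41.6, 43.4 and 40.1 with PI3Kdi. Those groups overlapped, with log2 differences of -0.21 ± 0.11 (adjusted p = 0.0961) and -0.05 ± 0.11 (adjusted p = 0.805). In CTL Eif4g3 had 36.5, 43.99 and 47.5 FPKM with IL-2 and 26.6, 29.2 and 29.6 without it, a log2 fold change of -0.57 ± 0.11 (adjusted p = 9.10e-04).

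Eif4e3 (Entrez 66892, chromosome 6 from 99621879 to 99692873), an unusual cap-binding relative of eIF4E, was the only eIF gene that rose with PI3Kdi. Its level was 8.31, 9.19 and 8.80 FPKM in the 3 naïve libraries, 6.56, 5.92 and 4.20 in the 3 TCR activated libraries and 11.1, 11.3 and 16.8 with PI3Kdi. The inhibitor libraries were above both other groups, replicate 3 most of all, and the activated libraries were below the naïve ones. The log2 fold change was 1.21 ± 0.19 (adjusted p = 0.00159) with PI3Kdi, 2.32-fold, and -0.67 ± 0.19 (adjusted p = 0.00687) with TCR activation. Without replicate 3 the inhibitor value was 0.83 (adjusted p = 0.00806), under 2-fold. In CTL Eif4e3 had 63.5, 58.6 and 50.4 FPKM with IL-2 and 50.9, 48.8 and 41.3 without it. These groups overlapped, with a log2 fold change of -0.29 ± 0.11 (adjusted p = 0.0386), which had an adjusted p of 0.051 after rescaling to equal medians, 0.0757 without the intensity trend, 0.0686 without replicate 1 (log2 -0.28) and 0.142 without replicate 2 (-0.30). With a replicate block it was 0.00957, and each library was lower than the one of the same number with IL-2. The gene overlaps Gpr27 in the annotation, which has no entry in either table. Eif4e2, which competes with eIF4E for the cap, had a mean of 23.6 ± 0.524 FPKM in naïve and 31.3 ± 1.84 after activation (SD, n = 3), and Eif4b and Eif4h, the cofactors that stimulate eIF4A, had 190.3 ± 11.3 and 272 ± 15.6, and 100.4 ± 2.02 and 259.7 ± 28.8. Of these only Eif4h passed 2-fold, with a log2 fold change of 1.36 ± 0.09 (adjusted p = 7.30e-08), while Eif4b had 0.51 ± 0.083 (adjusted p = 1.35e-04) and Eif4e2 0.40 ± 0.079 (adjusted p = 6.37e-04). Without IL-2 the log2 fold changes were -0.35 for Eif4h, -0.11 for Eif4b and -0.28 for Eif4e2. The value of Eif4e2 had an adjusted p of 0.0185, or 0.157 without replicate 2 (-0.25) and 0.0789 without replicate 3 (-0.24). As a group the eIF4 genes had a summed level of 1145, 1178 and 1122 FPKM in naïve cells, 2167, 2639.6 and 2689 after activation and 2184, 2147 and 2235 with PI3Kdi. In CTL the sum was 1799.6, 1804 and 1853 FPKM with IL-2 and 983, 959 and 932 without it.

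**Figure D2:**
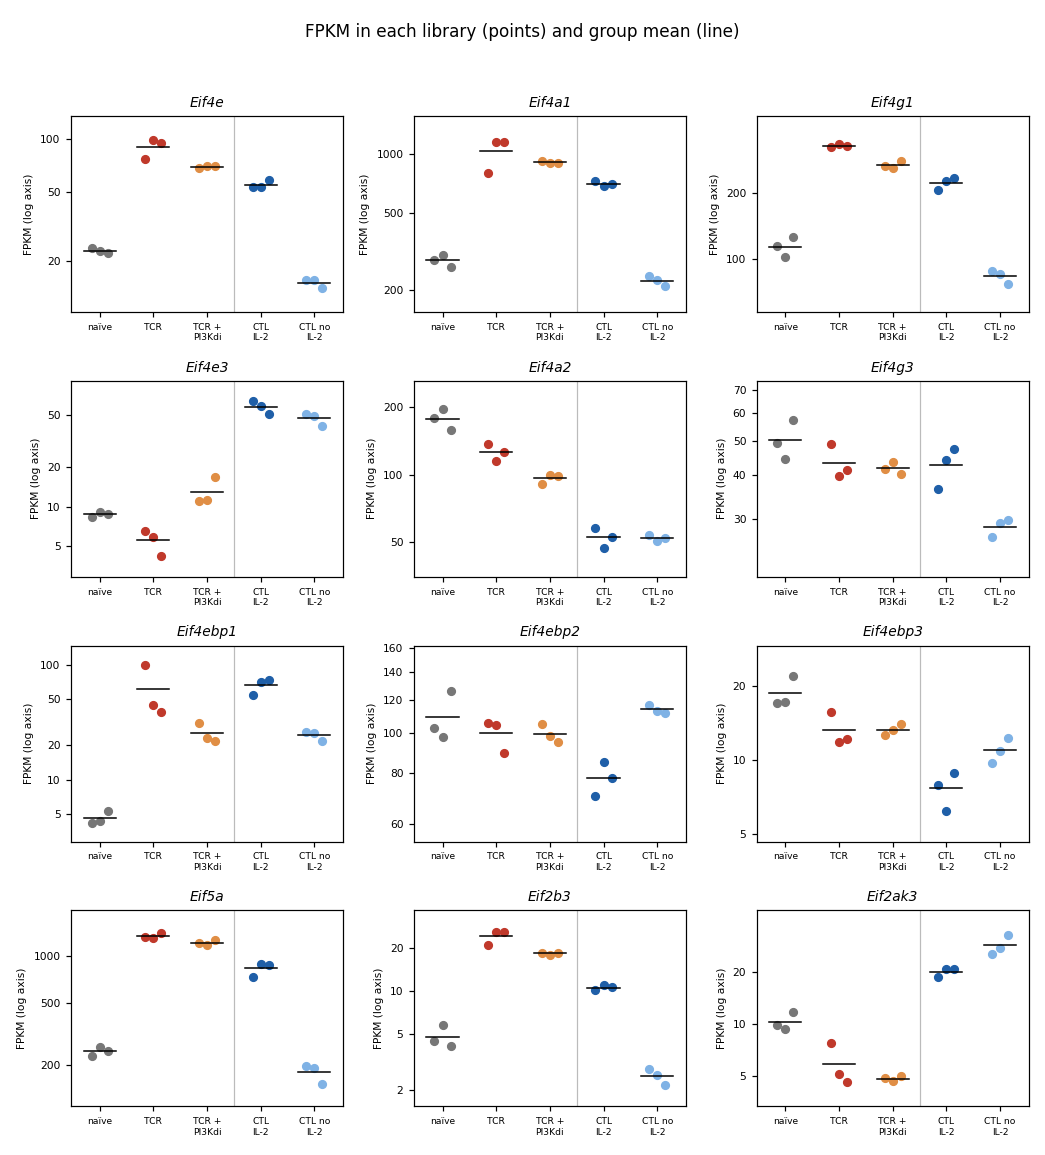
FPKM of Eif4 genes and of Eif5a, Eif2b3 and Eif2ak3 in every library (points) with the group mean (line), in naïve, TCR activated and PI3Kdi treated cells and in CTL with or without IL-2. Among the groups of the first table, the means of Eif4e, Eif4a1 and Eif4g1 were highest in TCR activated cells and that of Eif4a2 in naïve cells. In CTL, Eif4e, Eif4a1 and Eif4g1 fell without IL-2.

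Ratios within a library do not move with its scaling, and they show how unequally paralogues changed. Eif4a1 over Eif4a2 was 1.59, 1.55 and 1.67 in naïve cells, 5.79, 10.0 and 9.10 after activation and 10.1, 8.96 and 9.10 with PI3Kdi. CTL had ratios of 12.6, 14.5 and 13.2 with IL-2 and 4.40, 4.41 and 4.01 without it. Eif4a1 thus exceeded Eif4a2 in every library, and least in naïve cells. Eif4g1 over Eif4g3 averaged 2.27 ± 0.067 in naïve cells and 7.74 ± 0.976 after activation, and 5.29 ± 0.344 and 2.94 ± 0.356 in CTL with and without IL-2 (SD, n = 3). Eif4g1 over Eif4g2 went from 0.649 ± 0.0772 to 1.10 ± 0.138 with activation and from 0.989 ± 0.0523 to 0.721 ± 0.0457 when IL-2 was removed. In all 6 of these comparisons the groups did not overlap, and the exact two-sided permutation test gave p = 0.1, the smallest that 3 against 3 libraries allow, or 0.15 after adjustment over the 21 ratio tests. No ratio test could therefore reach 0.05. Between PI3Kdi and TCR activated cells the Eif4a1 over Eif4a2 ratios overlapped (exact permutation p = 0.6, adjusted p = 0.7), and the difference of the means, 1.09, was -0.531 without replicate 1.

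**Figure D3:**
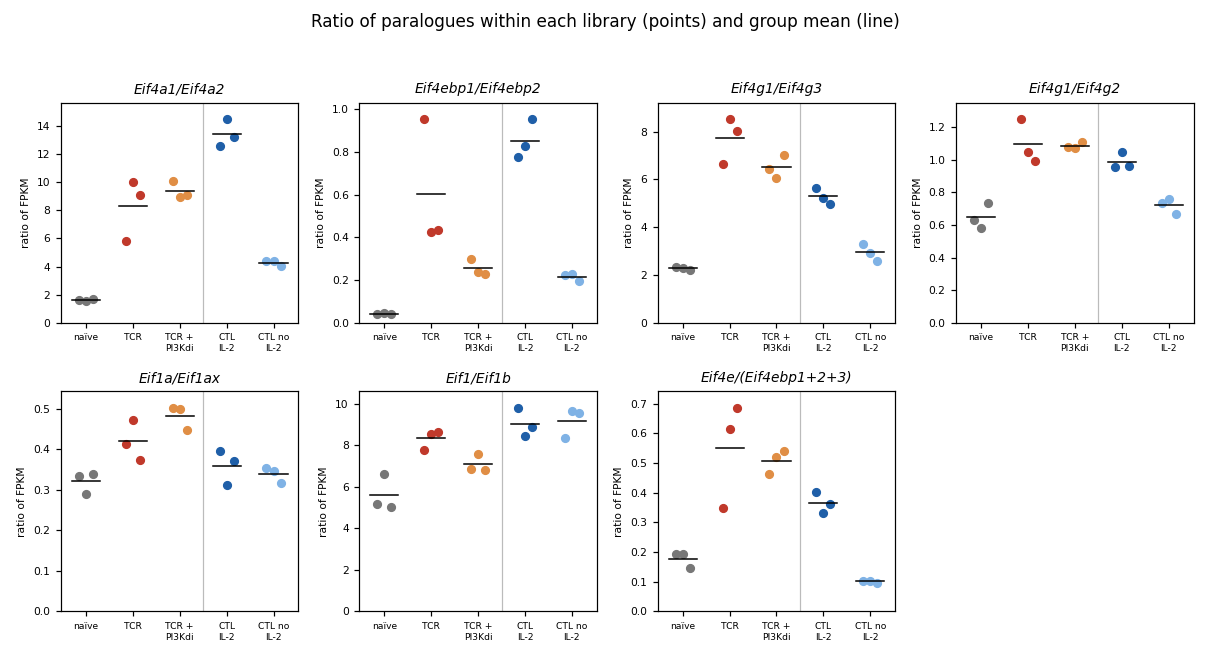
Ratio of FPKM of 7 pairs of genes within each library (points) and the group mean (line). Eif4a1 over Eif4a2 sits between 1.55 and 1.67 in naïve cells and between 5.79 and 10.0 after activation, and in CTL between 12.6 and 14.5 with IL-2 and between 4.01 and 4.41 without it.

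The repressors of eIF4E include the gene with the largest rise with activation, which was also the only one to fall with the inhibitor. Eif4ebp1 (Entrez 13685, chromosome 8 from 27260327 to 27275656), which encodes 4E-BP1, the best studied of the mTORC1-controlled repressors, had 4.24, 4.34 and 5.33 FPKM in the 3 naïve libraries, 100.5, 44.6 and 38.5 in the 3 TCR activated libraries and 31.1, 23.2 and 21.8 with PI3Kdi. The naïve libraries were far below all others, TCR replicate 1 was more than 2-fold above the other activated libraries, and the inhibitor libraries lay between the naïve and the activated ones. The rise of 11.8-fold (log2 3.56 ± 0.29, adjusted p = 4.79e-07) was the largest of any eIF gene. With PI3Kdi the log2 fold change was -1.15 ± 0.29 (adjusted p = 0.0216). That fall depended on the libraries used: it was -0.88 (adjusted p = 0.0089) without replicate 1, under 2-fold, -1.25 (adjusted p = 0.149) without replicate 2, and -1.15 (adjusted p = 0.0595) when the 2 groups were fitted without the naïve libraries. In CTL Eif4ebp1 had 54.6, 70.4 and 74.03 FPKM with IL-2 and 26.2, 25.7 and 21.9 without it, groups far apart with a fall of 2.68-fold (log2 -1.42 ± 0.12, adjusted p = 7.30e-06).

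Eif4ebp2, whose product is the closest relative of 4E-BP1, had 103, 97.5 and 126 FPKM in the 3 naïve libraries, 105, 104 and 89.2 in the 3 TCR activated libraries and 105, 97.97 and 95.03 with PI3Kdi. The 3 groups overlapped, with log2 differences of -0.12 ± 0.11 (adjusted p = 0.311) and 0.00 ± 0.11 (adjusted p = 0.989). In CTL Eif4ebp2 had 70.2, 85.1 and 77.6 FPKM with IL-2 and 117, 113 and 112 without it, higher in each library without IL-2, by 0.56 ± 0.085 (adjusted p = 2.62e-04) on the log2 scale. Eif4ebp3, another 4E-BP, had 17.1, 17.3 and 21.99 FPKM in the 3 naïve libraries, 15.7, 11.8 and 12.2 in the 3 TCR activated libraries and 12.7, 13.3 and 14 with PI3Kdi. Its naïve level was the highest of these groups, with a log2 fold change of -0.50 ± 0.13 (adjusted p = 0.00465), which was -0.33 (adjusted p = 0.0745) without replicate 3. In CTL Eif4ebp3 had 7.92, 6.22 and 8.91 FPKM with IL-2 and 9.78, 10.9 and 12.3 without it. Here too the libraries without IL-2 were higher, by 0.52 ± 0.15 (adjusted p = 0.00997) on the log2 scale, or 0.38 (adjusted p = 0.0891) without replicate 2. Eif4enif1, which encodes the transporter 4E-T that binds eIF4E and takes mRNAs to P-bodies, rose from a mean of 26.4 ± 2.53 to 90.3 ± 2.99 FPKM (SD, n = 3) with activation, a log2 fold change of 1.78 ± 0.087 (adjusted p = 6.59e-09). It was higher still with PI3Kdi (111 ± 7.12 FPKM, log2 0.30 ± 0.087, adjusted p = 0.038), although with a replicate block the adjusted p was 0.0614, after rescaling 0.053, and without replicate 1, 2 or 3 it was 0.117, 0.322 or 0.0724 (log2 0.33, 0.24 and 0.33).

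The balance within the 4E-BPs moved with Eif4ebp1. Eif4ebp1 over Eif4ebp2 was 0.0412, 0.0445 and 0.0423 in naïve cells, 0.953, 0.427 and 0.432 after activation and 0.297, 0.237 and 0.229 with PI3Kdi. With IL-2 the CTL ratios were 0.777, 0.827 and 0.954, and without it 0.224, 0.227 and 0.196. No 2 groups compared overlapped, and naïve cells held the least of Eif4ebp1 relative to Eif4ebp2. The level of Eif4e over the summed 4E-BPs was 0.192, 0.193 and 0.145 in naïve cells, 0.348, 0.616 and 0.686 after activation and 0.462, 0.521 and 0.539 with PI3Kdi. In CTL this ratio was 0.403, 0.330 and 0.363 with IL-2 and 0.102, 0.104 and 0.0967 without it, lower in each library without IL-2. The exact permutation test gave p = 0.1 (adjusted p = 0.15) for all of these differences but that of Eif4e over the 4E-BPs between PI3Kdi and TCR activated cells (p = 0.8, adjusted p = 0.884), whose difference of means of -0.0424 was 0.00977 without replicate 3. These are ratios of mRNA, and the phosphorylation of 4E-BPs was not measured.

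All 3 genes of eIF2 rose with TCR activation, beside 25.0% of all genes. Eif2s1 (Entrez 13665, chromosome 12 from 78862072 to 78887010), which encodes the α subunit that the stress kinases phosphorylate, had 32.9, 33.8 and 28.2 FPKM in the 3 naïve libraries, 118, 148 and 146 in the 3 TCR activated libraries and 115, 117 and 111 with PI3Kdi. The naïve and activated libraries were far apart, and those with PI3Kdi were all slightly below those without. The log2 fold changes were 2.11 ± 0.10 (adjusted p = 6.59e-09) and -0.25 ± 0.10 (adjusted p = 0.119). In CTL it had 84.7, 84.7 and 86.95 FPKM with IL-2 and 35.4, 31.8 and 28.9 without it, a fall of 2.67-fold with no overlap (log2 -1.42 ± 0.087, adjusted p = 9.75e-07). Eif2s2, for the β subunit, had 35.5, 39.7 and 35.1 FPKM in the 3 naïve libraries, 158, 171 and 169 in the 3 TCR activated libraries and 134, 124 and 121 with PI3Kdi. It rose by 4.51-fold (log2 2.17 ± 0.08, adjusted p = 7.13e-10), and the inhibitor libraries lay below the activated ones (log2 -0.39 ± 0.08, adjusted p = 0.00679), or -0.36 (adjusted p = 0.129) without replicate 2 and -0.35 (adjusted p = 0.0805) without replicate 3. In CTL Eif2s2 had 125, 122 and 136 FPKM with IL-2 and 49.5, 47.3 and 49.1 without it, which fell by 2.62-fold (log2 -1.39 ± 0.074, adjusted p = 5.15e-07). Eif2s3x, for the γ subunit that holds GTP and the initiator tRNA, went from a mean of 22.8 ± 1.56 to 81.7 ± 14.1 FPKM (SD, n = 3; log2 1.82 ± 0.12, adjusted p = 6.86e-08). Its log2 fold change without IL-2 was -0.99 ± 0.076 (adjusted p = 3.36e-06), and it passed 2-fold without replicate 1 (adjusted p = 8.63e-05) and without replicate 2 (-1.03, adjusted p = 3.65e-04). Summed, the eIF2 genes had 91.7, 97.5 and 84.4 FPKM in naïve cells and 341, 407 and 407 after activation, and 253, 249.7 and 269.9 against 107, 102 and 99.8 in CTL with and without IL-2.

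The exchange factor eIF2B, which reloads eIF2 with GTP, has 5 subunits, and 4 of the 5 genes rose with activation (80%, beside 25.0% of all genes). Eif2b3 (Entrez 108067, chromosome 4 from 117019399 to 117086852), for the γ subunit of its catalytic core, had 4.44, 5.70 and 4.06 FPKM in the 3 naïve libraries, 20.8, 25.8 and 25.8 in the 3 TCR activated libraries and 18.4, 17.8 and 18.4 with PI3Kdi. It rose by 5.04-fold, one of the 3 largest rises among the eIF genes (log2 2.33 ± 0.14, adjusted p = 2.48e-08). With PI3Kdi all 3 libraries were below the activated ones, with a log2 difference of -0.40 ± 0.14 (adjusted p = 0.0655), or an adjusted p of 0.0405 in a fit of these 2 groups alone. In CTL Eif2b3 had 10.04, 10.9 and 10.6 FPKM with IL-2 and 2.80, 2.57 and 2.18 without it, a fall of 4.07-fold (log2 -2.02 ± 0.13, adjusted p = 1.08e-06) with no overlap. By mean FPKM it was the least abundant eIF2B mRNA in all 5 groups. Eif2b1, Eif2b4 and Eif2b5 rose with log2 fold changes of 2.05 ± 0.13, 1.44 ± 0.085 and 1.48 ± 0.088, while Eif2b2 had 0.34 ± 0.088. Without IL-2, Eif2b1 and Eif2b5 were lower by under 2-fold (-0.89 and -0.90), and Eif2b2 and Eif2b4 had -0.09 ± 0.11 (adjusted p = 0.476) and -0.19 ± 0.12 (adjusted p = 0.171), the second with -0.35 (adjusted p = 0.028) without replicate 1. The most abundant subunit mRNA exceeded the least abundant one by 7.81, 7.03 and 10.1-fold in the naïve libraries, by 3.49, 3.29 and 3.52-fold in the TCR activated ones and by 4.09, 4.12 and 4.20-fold with PI3Kdi. In CTL this range was 4.64, 4.48 and 4.33-fold with IL-2 and 13.5, 15.4 and 19.9-fold without it. The range of subunit levels was looked at after the values had been seen and was not tested. Eif2a and Eif2d, whose products can bring initiator tRNA to ribosomes without eIF2, had log2 fold changes of 1.42 ± 0.089 (adjusted p = 4.72e-08) and 0.92 ± 0.084 (adjusted p = 1.10e-06) with activation, so that only Eif2a rose, and Eif2d passed 2-fold after rescaling (1.04, adjusted p = 3.56e-07). Without IL-2 they had 0.06 ± 0.074 (adjusted p = 0.45) and -0.48 ± 0.093 (adjusted p = 0.00121).

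None of the 4 eIF2α kinase genes changed by 2-fold in any of the 3 comparisons with all libraries, and each had its own course. Of all genes, 48.7% changed by the 2-fold rule with activation, 5.14% with PI3Kdi and 28.2% without IL-2. At an unadjusted p under 0.05 limma gave 2 of the 4 kinase genes higher and 1 lower with activation, 0 and 0 with PI3Kdi, and 1 higher and 1 lower without IL-2, all under 2-fold. Of all genes 41.5% were higher and 40.4% lower with activation by this rule, 16.1% and 15.4% with PI3Kdi, and 36.3% and 37.7% without IL-2. Eif2ak1 (HRI, the kinase that senses haem shortage) had 31.7, 32.9 and 35.2 FPKM in the 3 naïve libraries, 36.6, 38.5 and 38.8 in the 3 TCR activated libraries and 37.1, 37.4 and 40.9 with PI3Kdi. The groups lay close together, at 0.19 ± 0.079 (adjusted p = 0.0411) with activation, which became 0.18, 0.17 and 0.22 (adjusted p = 0.113, 0.218 and 0.0725) without replicate 1, 2 or 3, and 0.02 ± 0.079 (adjusted p = 0.904) with PI3Kdi. In CTL Eif2ak1 had 28.5, 31.7 and 31.4 FPKM with IL-2 and 34.3, 33.8 and 31.3 without it, with a log2 difference of 0.12 ± 0.081 (adjusted p = 0.214). Eif2ak2 (PKR, the sensor of double-stranded RNA) had 11.02, 7.81 and 8.30 FPKM in the 3 naïve libraries, 8.27, 9.49 and 11.1 in the 3 TCR activated libraries and 8.54, 7.55 and 10.1 with PI3Kdi. These overlapped, at 0.09 ± 0.16 (adjusted p = 0.616) and -0.14 ± 0.16 (adjusted p = 0.622). In CTL Eif2ak2 had 21.9, 17.9 and 20.1 FPKM with IL-2 and 12.3, 13.02 and 13.3 without it, lower in each library without IL-2 (log2 -0.63 ± 0.10, adjusted p = 3.30e-04).

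Eif2ak3 (PERK, the kinase of the endoplasmic reticulum) had 9.80, 9.37 and 11.6 FPKM in the 3 naïve libraries, 7.71, 5.15 and 4.59 in the 3 TCR activated libraries and 4.84, 4.65 and 4.97 with PI3Kdi. The naïve libraries were all higher, by a log2 fold change of -0.84 ± 0.18 (adjusted p = 0.00103), which passed 2-fold without replicate 1 (-1.09, adjusted p = 4.66e-04). With PI3Kdi the difference was -0.23 ± 0.18 (adjusted p = 0.415). In CTL Eif2ak3 had 18.7, 20.7 and 20.7 FPKM with IL-2 and 25.3, 27.5 and 32.8 without it, higher in each library without IL-2 (log2 0.50 ± 0.11, adjusted p = 0.00218). Eif2ak4 (GCN2, the sensor of uncharged tRNA and so of amino acid shortage) had 5.11, 4.34 and 4.82 FPKM in the 3 naïve libraries, 8.05, 9.69 and 8.38 in the 3 TCR activated libraries and 8.24, 9.51 and 7.66 with PI3Kdi. It was higher in each activated library than in any naïve one (log2 0.86 ± 0.13, adjusted p = 7.30e-05), the opposite of Eif2ak3, and with PI3Kdi the difference was -0.04 ± 0.13 (adjusted p = 0.863). In CTL Eif2ak4 had 4.57, 4.98 and 4.63 FPKM with IL-2 and 3.87, 4.27 and 3.92 without it, a log2 difference of -0.23 ± 0.12 (adjusted p = 0.105). Summed, the 4 kinases had 57.6, 54.4 and 59.9 FPKM in naïve cells and 60.6, 62.9 and 62.8 after activation, so the group's level moved far less than that of the factors.

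eIF3, the largest initiation complex, split into subunits that rose with activation and subunits that did not. Of its 12 genes, 7 rose (Eif3a, Eif3b, Eif3c, Eif3d, Eif3g, Eif3i and Eif3l), and Eif3e, Eif3f, Eif3h, Eif3k and Eif3m did not (58.3% rose, beside 25.0% of all genes). The median log2 fold change was 1.19. Eif3b (Entrez 27979, chromosome 5 from 140419305 to 140443358), a core scaffold of the complex, had 87.6, 89.3 and 93.9 FPKM in the 3 naïve libraries, 301, 323 and 348 in the 3 TCR activated libraries and 286, 269 and 303 with PI3Kdi. It went from the least abundant eIF3 mRNA in naïve cells to 3.58-fold more (log2 1.84 ± 0.082, adjusted p = 3.21e-09), and with PI3Kdi the log2 difference was -0.18 ± 0.082 (adjusted p = 0.165) with overlapping groups. In CTL Eif3b had 192, 218 and 221 FPKM with IL-2 and 70.2, 67.3 and 57.7 without it, which fell by 3.24-fold (log2 -1.70 ± 0.10, adjusted p = 6.86e-07), the only eIF3 gene to pass 2-fold there. Eif3a, for the largest subunit, had 97.9, 90.7 and 107 FPKM in the 3 naïve libraries, 231, 241 and 235 in the 3 TCR activated libraries and 215, 219.7 and 221 with PI3Kdi. It rose by 1.26 ± 0.078 (adjusted p = 4.32e-08) on the log2 scale and the difference with PI3Kdi was -0.11 ± 0.078 (adjusted p = 0.382). In CTL Eif3a had 159.6, 159.7 and 185 FPKM with IL-2 and 107, 109 and 109 without it, lower by under 2-fold (log2 -0.63 ± 0.081, adjusted p = 8.57e-05). Eif3c, which reaches towards eIF1 and eIF5, had 124, 128 and 131 FPKM in the 3 naïve libraries, 330.1, 341 and 352 in the 3 TCR activated libraries and 315, 301 and 312 with PI3Kdi. Its log2 fold changes were 1.42 ± 0.07 (adjusted p = 7.26e-09) with activation, a rise, and -0.14 ± 0.07 (adjusted p = 0.198) with PI3Kdi, while CTL had 214, 225 and 248 FPKM with IL-2 and 149.6, 142 and 147 without it (log2 -0.65 ± 0.079, adjusted p = 5.97e-05). All 3 of these genes were lower in CTL without IL-2 at an adjusted p under 0.05 and any fold, as were 36.6% of all genes. The rise of Eif3i was the closest to the limit, at 1.12 ± 0.11 (adjusted p = 3.01e-06), and was 0.99 (adjusted p = 2.46e-04) without replicate 3.

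The 5 other subunit genes did not rise with activation. Eif3f averaged 279 ± 40.7 FPKM in naïve, 195 ± 21.2 in TCR activated and 220.4 ± 7.7 in inhibitor treated cells (SD, n = 3), lower with activation (log2 -0.52 ± 0.11, adjusted p = 0.00127). Eif3h averaged 361 ± 45.9, 294 ± 10.6 and 282 ± 9.76 FPKM. It was lower with activation, with a log2 fold change of -0.29 ± 0.10 (adjusted p = 0.0175), which was -0.17 (adjusted p = 0.131) after rescaling to equal medians, -0.18 (adjusted p = 0.232) without replicate 2 and -0.29 (adjusted p = 0.0853) without replicate 3. Eif3e had a log2 difference of 0.13 ± 0.17 (adjusted p = 0.492) and Eif3k of 0.17 ± 0.085 (adjusted p = 0.0833), the latter with 0.29 (adjusted p = 0.00807) after rescaling. Eif3m was higher by 0.51 ± 0.18 (adjusted p = 0.0212) on the log2 scale, or by 0.24 (adjusted p = 0.276) without replicate 3. In CTL without IL-2, 4 of these 5 genes were higher at any fold. Of all genes 35.2% were, a share that also counts genes that had risen with activation. On the log2 scale Eif3e was higher by 0.63 ± 0.093, Eif3f by 0.91 ± 0.076, Eif3h by 0.38 ± 0.10 and Eif3m by 0.47 ± 0.11. Eif3k had 0.18 ± 0.077 (adjusted p = 0.0571), or 0.20 (adjusted p = 0.0396) after rescaling. The 7 genes that had risen with activation were all lower there, with log2 fold changes from -0.35 (Eif3i) to -1.70 (Eif3b), while of all genes in both tables that had risen 76.1% were lower there at any fold. With these opposite moves the summed eIF3 level was 2359, 2472 and 2479 FPKM with IL-2 and 2435, 2366 and 2465 without it, overlapping groups. In the first table the sum was 1974, 2341 and 2036 FPKM in naïve cells, 3116, 3451 and 3617 after activation and 3251, 3192 and 3347 with PI3Kdi.

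Levels of the 12 eIF3 mRNAs drew together on activation. The most abundant exceeded the least abundant by 3.56, 4.50 and 3.95-fold in the naïve libraries, by 2.07, 1.83 and 1.72-fold in the TCR activated ones and by 1.48, 1.51 and 1.49-fold with PI3Kdi. CTL had a range of 2.38, 3.35 and 3.15-fold with IL-2 and of 6.75, 6.76 and 8.74-fold without it. The 3 groups of the first table did not overlap in this range, nor did the CTL groups. In naïve cells the extremes were Eif3b at a mean of 90.2 FPKM and Eif3h at 361, and in CTL without IL-2 the same genes at 65.1 and 478. This range, too, was chosen after the values had been seen and has no test. The 3 eIF2 mRNAs did not draw together. Their range was 1.53, 1.65 and 1.67-fold in naïve libraries, 2.41, 1.95 and 1.85-fold in TCR activated ones and 1.82, 1.70 and 1.53-fold with PI3Kdi. In CTL it was 2.85, 2.81 and 2.88-fold with IL-2 and 2.21, 2.03 and 2.25-fold without it, again with no test.

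**Figure D4:**
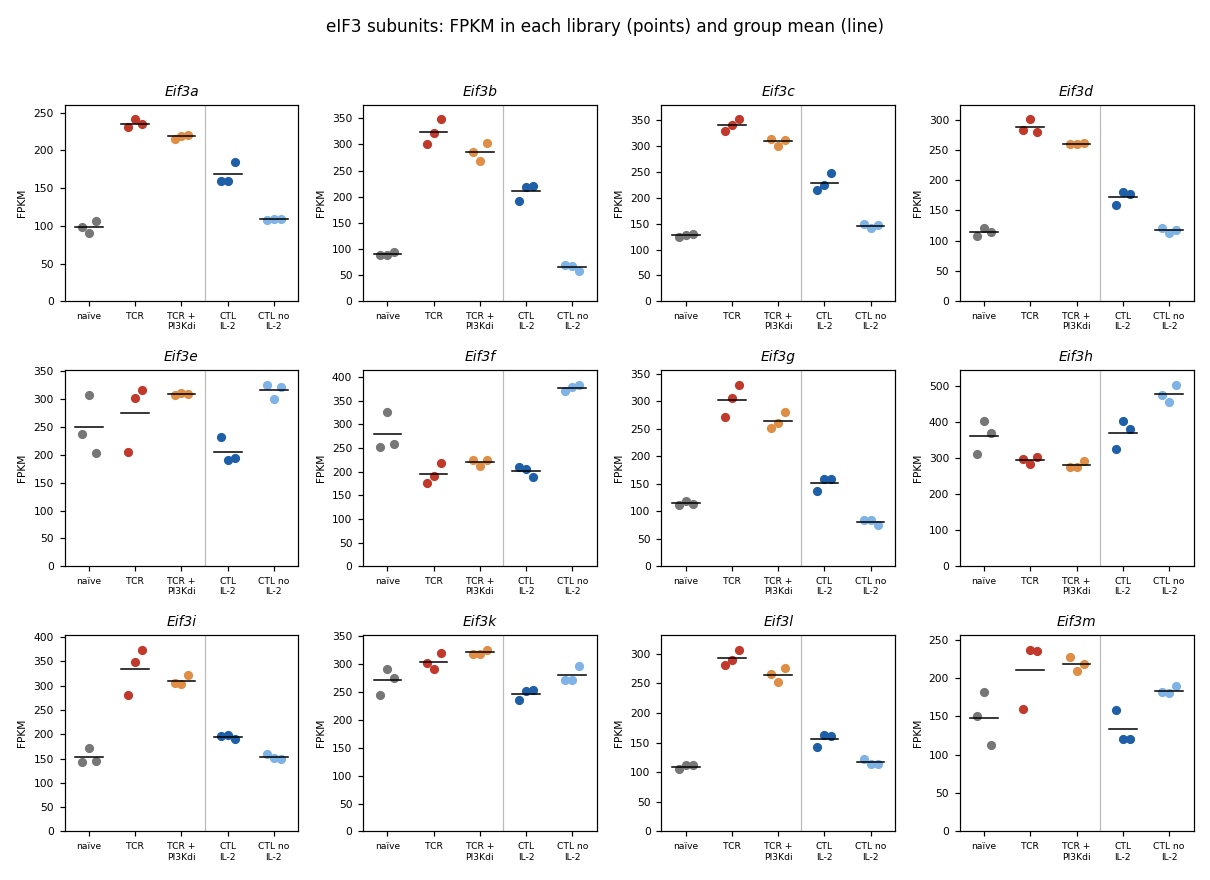
FPKM of the 12 eIF3 genes in every library (points) with the group mean (line). Eif3b, Eif3a and Eif3c rose with TCR activation and were lower without IL-2, whereas Eif3f and Eif3h were lower in TCR activated than in naïve cells and higher in CTL without IL-2, the naïve difference of Eif3h losing its adjusted p under 0.05 after rescaling to equal medians.

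Among the genes for start site selection, both that encode eIF1A rose. Eif1a (Entrez 13664, chromosome 18 from 46597704 to 46610225) and its X-linked relative Eif1ax encode nearly the same protein, which promotes scanning and start codon recognition. Eif1a had 18.2, 17.02 and 15.5 FPKM in the 3 naïve libraries, 71.5, 93.2 and 82.1 in the 3 TCR activated libraries and 80.2, 76.2 and 71.4 with PI3Kdi. The activated libraries with or without PI3Kdi were all far above the naïve ones, at 4.82-fold (log2 2.27 ± 0.11, adjusted p = 4.49e-09), and the inhibitor difference was -0.11 ± 0.11 (adjusted p = 0.532). In CTL it had 54.4, 45.1 and 56.9 FPKM with IL-2 and 18, 17.7 and 14.9 without it, a fall of 3.07-fold (log2 -1.62 ± 0.11, adjusted p = 1.94e-06). Eif1ax had 54.5, 58.4 and 45.8 FPKM in the 3 naïve libraries, 173, 197 and 219 in the 3 TCR activated libraries and 159, 152 and 159.6 with PI3Kdi. It rose by 3.71-fold (log2 1.89 ± 0.11, adjusted p = 2.35e-08), with -0.32 ± 0.11 (adjusted p = 0.07) for the inhibitor, whose libraries were all below the activated ones. In CTL Eif1ax had 137, 144 and 153 FPKM with IL-2 and 50.9, 51.1 and 46.99 without it, a fall of 2.91-fold (log2 -1.54 ± 0.076, adjusted p = 3.91e-07). Eif1a over Eif1ax averaged 0.322 ± 0.0262 in naïve cells, 0.421 ± 0.0492 after activation and 0.484 ± 0.0318 with PI3Kdi (SD, n = 3), and 0.360 ± 0.0432 and 0.339 ± 0.0193 in CTL with and without IL-2. Reads of such close relatives, and of named pseudogenes of Eif1 (3) and Eif2s3x (1), are hard to assign to 1 gene, and how the counting treated them was not tested.

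Eif1, whose product guards against wrong start codons, had 286, 354 and 249 FPKM in the 3 naïve libraries, 385, 443 and 478 in the 3 TCR activated libraries and 365, 363 and 347 with PI3Kdi. Each activated library was above the naïve ones, by 0.56 ± 0.13 (adjusted p = 0.00156) on the log2 scale, under 2-fold, and each inhibitor library was below the activated ones (log2 -0.28 ± 0.13, adjusted p = 0.163). In CTL Eif1 had 331, 306 and 312 FPKM with IL-2 and 319, 327 and 355 without it, overlapping groups (log2 0.08 ± 0.079, adjusted p = 0.396). Its paralogue Eif1b averaged 52.9 ± 3.01, 52.2 ± 2.84 and 50.7 ± 2.71 FPKM in the first table (SD, n = 3), a log2 difference with activation of -0.02 ± 0.081 (adjusted p = 0.832) that was 0.10 after rescaling. Eif1 over Eif1b was 5.60 ± 0.873 in naïve cells, 8.33 ± 0.479 after activation and 7.08 ± 0.427 with PI3Kdi, and 9.04 ± 0.697 and 9.18 ± 0.720 in CTL with and without IL-2. Eif5, for the protein that triggers GTP hydrolysis on eIF2, was higher with activation (log2 0.78 ± 0.11, adjusted p = 5.01e-05) and lower without IL-2 (log2 -0.70 ± 0.083, adjusted p = 4.82e-05), both under 2-fold.

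The largest response of the later steps was that of Eif5a (Entrez 276770, chromosome 11 from 69916712 to 69921958). Its product, which carries hypusine, acts mainly when ribosomes stall during elongation and at termination. Eif5a had 229.5, 263 and 246 FPKM in the 3 naïve libraries, 1323, 1305 and 1409 in the 3 TCR activated libraries and 1217, 1182 and 1270.1 with PI3Kdi. By mean FPKM it went from rank 205 of all genes in naïve cells to rank 46 after activation and rank 50 with PI3Kdi. The activated libraries were 5.47-fold above the naïve ones (log2 2.45 ± 0.09, adjusted p = 6.95e-10), the largest rise of a factor with all libraries. Without replicate 1 the rise of Eif1a (log2 2.42) was slightly above that of Eif5a (2.41). The difference of Eif5a with PI3Kdi was -0.14 ± 0.09 (adjusted p = 0.329). In CTL Eif5a had 739, 898 and 876 FPKM with IL-2 and 199, 191 and 152 without it, from rank 85 to rank 328. That fall of 4.65-fold (log2 -2.22 ± 0.12, adjusted p = 5.58e-07) was also the largest of any eIF gene without IL-2. Eif5a overlaps Gps2 in the annotation. Its paralogue Eif5a2 was scarce, at 1.49 ± 0.292 FPKM in naïve and 3.74 ± 0.81 after activation (SD, n = 3), and its log2 change of 1.26 ± 0.19 (adjusted p = 7.53e-05) was one that a pseudocount of 1 brought to 0.92. In CTL without IL-2, Eif5a2 was higher by 0.53 ± 0.17 (adjusted p = 0.0173) on the log2 scale, or 0.53 (adjusted p = 0.0886) without replicate 2.

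Eif6, for the factor that keeps free large subunits from joining small ones and is needed to make them, had 55.8, 58.9 and 55.4 FPKM in the 3 naïve libraries, 172, 195 and 214 in the 3 TCR activated libraries and 149, 143 and 162 with PI3Kdi. It rose by 3.4-fold (log2 1.76 ± 0.092, adjusted p = 1.09e-08). The inhibitor libraries were all below the activated ones (log2 -0.35 ± 0.092, adjusted p = 0.0238), or -0.30 (adjusted p = 0.271) without replicate 2 and -0.33 (adjusted p = 0.0932) without replicate 3. In CTL Eif6 had 90.3, 100.0 and 96.1 FPKM with IL-2 and 46.4, 44.7 and 46.01 without it, a fall of 2.08-fold (log2 -1.06 ± 0.072, adjusted p = 1.69e-06). Eif5b, for the GTPase that joins the ribosomal subunits, had 20.4, 19.1 and 24.2 FPKM in the 3 naïve libraries, 49.3, 50.3 and 50.5 in the 3 TCR activated libraries and 48.3, 48.1 and 49.8 with PI3Kdi. It rose by 1.24 ± 0.092 (adjusted p = 1.89e-07) on the log2 scale, and the inhibitor groups overlapped (-0.04 ± 0.092, adjusted p = 0.822). In CTL Eif5b had 30.1, 32.4 and 37.6 FPKM with IL-2 and 16.3, 15.3 and 14.3 without it. It fell by 2.16-fold (log2 -1.11 ± 0.10, adjusted p = 1.03e-05), or -0.97 (adjusted p = 1.02e-04) without replicate 3.

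A few genes share the name only. Eif4a3 encodes the helicase core of the exon junction complex, which is left on spliced mRNA, and it had 80.8, 96.4 and 94.5 FPKM in the 3 naïve libraries, 200.3, 216 and 219 in the 3 TCR activated libraries and 178, 175 and 186 with PI3Kdi. It rose by 1.23 ± 0.085 (adjusted p = 1.12e-07) on the log2 scale, with -0.24 ± 0.085 (adjusted p = 0.0813) for the inhibitor. In CTL Eif4a3 had 144, 165 and 166 FPKM with IL-2 and 75.4, 77.4 and 69.6 without it, a fall of 2.13-fold (log2 -1.09 ± 0.084, adjusted p = 3.33e-06). Eif1ad, named for an eIF1A-like domain, rose with activation (log2 1.18 ± 0.091, adjusted p = 2.76e-07) and was lower without IL-2 (log2 -0.75 ± 0.083, adjusted p = 3.34e-05). The Argonautes bind small RNAs and repress mRNAs. Eif2c2 (Ago2) was the most abundant of them in activated cells, at 28.1 ± 8.04 FPKM in naïve and 27.7 ± 1.29 after activation (SD, n = 3), with a log2 difference of 0.02 ± 0.18 (adjusted p = 0.918) that was -0.28 (adjusted p = 0.0485) without replicate 2. Eif2c1 (Ago1) was lower with activation (log2 -0.76 ± 0.10, adjusted p = 2.64e-05), as was Eif2c3 (Ago3; log2 -0.74 ± 0.23, adjusted p = 0.0116), the latter with -0.53 (adjusted p = 0.112) without replicate 1 and -0.71 (adjusted p = 0.0648) without replicate 3. Eif2c4 (Ago4), found in the CTL table alone, had 0.10, 0.07 and 0.06 FPKM with IL-2 and 0.26, 0.58 and 0.56 without it. Its log2 fold change of 1.63 ± 0.32 (adjusted p = 0.00137) rests on levels near 1 read per kilobase, and with a pseudocount of 1 it was 0.44.

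Other genes of translation were taken from a list of 42 for elongation, termination, poly(A)-binding proteins, helpers of initiation, and kinases and repressors, of which 41 have an entry (Gspt2 has none). With TCR activation 12 of 41 rose (29.3%, beside 25.0% of all genes) and 4 fell (9.76%, beside 23.7%), with a median log2 fold change of 0.48. Without IL-2 3 rose (7.32%, beside 14.3%) and 10 fell (24.4%, beside 13.9%), with a median of -0.50. With PI3Kdi 1 rose (2.44%, beside 3.04%) and 0 fell. At an unadjusted p under 0.05 limma gave 5 higher (12.2%, beside 16.1% of all genes) and 10 lower (24.4%, beside 15.4%) with PI3Kdi, of which only Pdcd4 moved by 2-fold. The largest move was that of Pdcd4, which encodes a repressor that binds eIF4A and blocks its helicase. Pdcd4 had 149, 142 and 141 FPKM in the 3 naïve libraries, 10.6, 11.3 and 15.99 in the 3 TCR activated libraries and 31.6, 45.1 and 65.2 with PI3Kdi. The naïve libraries were far above all others, and the inhibitor libraries lay between the naïve and the activated ones without overlap. It fell with activation by 11.5-fold (log2 -3.52 ± 0.22, adjusted p = 5.16e-08) and rose with PI3Kdi by 3.62-fold (log2 1.86 ± 0.22, adjusted p = 2.74e-04). In CTL Pdcd4 had 17.1, 14.3 and 8.32 FPKM with IL-2 and 127, 123 and 131 without it, a rise of 9.93-fold (log2 3.31 ± 0.22, adjusted p = 1.29e-06), so that its course was opposite to that of Eif4a1 with activation and without IL-2.

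The other large rises with activation were Pabpc4, for a poly(A)-binding protein (log2 2.81 ± 0.073, adjusted p = 7.01e-11), Eef1e1, for a partner of aminoacyl-tRNA synthetases (2.51 ± 0.10, adjusted p = 1.44e-09), and Etf1, for the release factor eRF1 (2.34 ± 0.11, adjusted p = 4.78e-09). Their means went from 24.4 ± 1.03 to 171 ± 9.46 FPKM, from 24.8 ± 0.947 to 142 ± 20.2 and from 39.9 ± 1.98 to 204 ± 33.1 (SD, n = 3). The falls were Pdcd4, Ppp1r15a, Paip2 and Nck1. Ppp1r15a, for GADD34, which directs a phosphatase to eIF2α, had a log2 fold change of -1.31 ± 0.22 (adjusted p = 1.60e-04), or -0.91 (adjusted p = 5.25e-04) without replicate 2, and Paip2, for an inhibitor of poly(A)-binding protein, one of -1.24 ± 0.10 (adjusted p = 2.96e-07). Without IL-2 the termination genes Etf1 and Gspt1 and the ribosome recycling gene Abce1 fell, with log2 fold changes of -1.15, -1.64 and -1.70, and Eef1e1 fell with -2.46. Pabpc4, Larp1 and Larp4, for proteins that act on mRNA ends, fell with -1.06, -1.85 and -1.88. The helicase gene Dhx29 and the reinitiation gene Denr fell with -1.36 and -1.21. Atf4, whose own translation increases when eIF2α is phosphorylated, had 95.9, 121 and 103 FPKM in the 3 naïve libraries, 373, 228 and 254 in the 3 TCR activated libraries and 185, 153 and 155 with PI3Kdi. It rose by 1.39 ± 0.17 (adjusted p = 1.12e-05) on the log2 scale with activation, and with PI3Kdi all libraries were below the activated ones (-0.77 ± 0.17, adjusted p = 0.00967), or -0.86 (adjusted p = 0.0511) without replicate 2 and -0.79 (adjusted p = 0.0625) without replicate 3. In CTL Atf4 had 172, 201 and 235 FPKM with IL-2 and 67.3, 71.9 and 77.9 without it (log2 -1.47 ± 0.11, adjusted p = 3.50e-06). The 3 that rose without IL-2 were Pdcd4, Paip2 (1.40 ± 0.12, adjusted p = 7.29e-06) and Mknk2, for a kinase that phosphorylates eIF4E (1.01 ± 0.082, adjusted p = 4.50e-06), which was 1.00 without replicate 1 and 0.95 without replicate 3, short of 2-fold. Elongation factor mRNAs differed. Eef1a1 averaged 9211 ± 1221 FPKM in naïve and 6401 ± 241 after activation (log2 -0.52 ± 0.15, adjusted p = 0.00743), or -0.43 (adjusted p = 0.0877) without replicate 2 and -0.56 (adjusted p = 0.0582) without replicate 3, and Eef2 1792 ± 104 and 1929.7 ± 92.7 (log2 0.11 ± 0.10, adjusted p = 0.355). Eef1b2, Eef1d and Eef1g had log2 fold changes of 0.04 ± 0.19 (adjusted p = 0.842), 1.16 ± 0.076 (adjusted p = 6.98e-08) and 0.87 ± 0.11 (adjusted p = 1.77e-05), so that of these 5 only Eef1d rose.

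The 55 genes lie on 18 chromosomes, with at most 6 on one, and 24 of them overlap another annotated gene, such as Eif2ak1 with Aimp2 and Eif4a2 with Rfc4. How reads of such overlaps were counted was not tested. RefSeq promoters (the 250 bases before each annotated start, GRCm38.p6) were matched for 44 of the genes, with 58 windows. They were searched for the E-box CACGTG, the preferred motif of MYC and its relatives, which is its own reverse complement. It was found in 11 of the 58 windows (19%), against 8.6% of the 10321 windows of the genes of the first table and 6.02% of all 32851 windows. Overlapping windows of Eif5a, with the motif 185 and 74 bases before their starts, hold the same site, which is counted in both. The genes with the motif were Eif1b, Eif3f, Eif3k, Eif4a1, Eif4e, Eif4g1, Eif4h, Eif5a and Eif5a2, which are 20.5% of the 44 genes, beside 10.3% of the genes of the first table. For Eif4e the motif lies only in a second window inside the gene, and that window and the one of Eif1b are wholly annotated as exon. The Eif5a windows with the motif also lie inside the gene, and the window before its outermost start does not hold it. Nearly all of the Eif5a2 window lies inside the gene too. Of the genes with the motif, Eif4a1, Eif4e, Eif4g1, Eif4h, Eif5a and Eif5a2 rose with TCR activation (6 of 9), and Eif1b, Eif3f and Eif3k did not. Among eIF genes without the motif, 18 of 34 rose (52.9%). A match of these letters is a description of the window, and binding there was not measured.

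The windows of 4 genes are shown, since they set side by side the helicase pair that moved apart and genes with the motif that rose or did not. Eif4a1 (chr11:69672424-69672673, minus strand) has the motif 189 bases before the start, Eif4g1 (chr16:20672477-20672726, plus strand) 54 bases before it, and Eif3f (chr7:108934165-108934414, plus strand) 68 bases before it, while the window of Eif4a2 (chr16:23107218-23107467, plus strand) does not hold these letters. Each is written 5′ to 3′ with the motif in capitals.
Eif4a1: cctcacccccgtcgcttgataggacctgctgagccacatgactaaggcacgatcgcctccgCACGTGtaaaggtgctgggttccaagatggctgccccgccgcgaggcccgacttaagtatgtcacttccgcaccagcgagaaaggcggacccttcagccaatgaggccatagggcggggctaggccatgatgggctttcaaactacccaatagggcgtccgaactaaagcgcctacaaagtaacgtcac
Eif4a2: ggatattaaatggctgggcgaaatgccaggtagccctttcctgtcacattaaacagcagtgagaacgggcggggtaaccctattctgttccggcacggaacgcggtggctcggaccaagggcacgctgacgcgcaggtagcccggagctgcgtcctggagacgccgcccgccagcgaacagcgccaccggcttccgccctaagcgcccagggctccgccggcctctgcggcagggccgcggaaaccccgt
Eif4g1: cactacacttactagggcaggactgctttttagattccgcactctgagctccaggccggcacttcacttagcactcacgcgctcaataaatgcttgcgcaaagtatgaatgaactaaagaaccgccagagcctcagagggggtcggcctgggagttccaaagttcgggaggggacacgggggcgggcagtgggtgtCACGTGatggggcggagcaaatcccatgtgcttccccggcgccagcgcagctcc
Eif3f: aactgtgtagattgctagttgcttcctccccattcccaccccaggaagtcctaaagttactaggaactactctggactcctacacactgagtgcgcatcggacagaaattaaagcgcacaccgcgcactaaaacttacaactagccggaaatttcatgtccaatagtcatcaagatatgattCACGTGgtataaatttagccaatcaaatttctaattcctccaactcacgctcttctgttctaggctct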

How the data were processed

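The authors deposited FPKM per gene for mRNA libraries of 15 samples in 2 tables. By the authors' labels and methods, reads were aligned to mm10 with STAR 2.5.2b, counted with Subread 1.5.1, filtered with filterByExpr, normalised by TMM and divided by summed exon length in edgeR. For the CTL table the same steps were assumed, and the strand setting of the counting is not given in the sources used here. The tables give 2 decimals, and 1039 empty cells of the first one were taken as 0.

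Samples were grouped by title, because the treatment labels of the CTL contradict their titles in places. log2(FPKM + 0.1) was fitted in R 4.3.3 with limma 3.58.1 (trend in the variance prior), 1 fit per table, and p-values were adjusted by Benjamini-Hochberg over all its genes. On data simulated for TCR activated against naïve cells (11262 genes) the fit recovered 93 of 100 genes changed by a log2 of 1.5 and 100 of 100 changed by 3, and called 1 unchanged gene. For CTL without and with IL-2 (11211 genes) it recovered 97 and 100 of 100 and called 3. The changed genes were drawn only from those with a positive mean of log2(FPKM + 0.1) in naïve cells or in CTL with IL-2. Recovery of scarcer genes was therefore not tested, and fewer genes were changed than in the data. The PI3Kdi comparison was not simulated. Ratios were compared by exact two-sided permutation tests over libraries. Sums and ranges have no test. Further tools were matplotlib 3.10.9, scipy 1.17.1, numpy 2.4.6, pandas 2.3.3 and Python 3.11.15.

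The members and lists were chosen with earlier results of these data known. Values in every library are given for Eif4e, Eif4a1, Eif4a2, Eif4g1 to Eif4g3, Eif4ebp1 to Eif4ebp3, Eif2s1, Eif2b3, the 4 Eif2ak genes, Eif5a, Eif6, Eif1, Eif1a, Eif3a to Eif3c, each member changed by 2-fold with PI3Kdi or without IL-2, and the 3 largest rises with activation. Of the other translation genes, those changed with PI3Kdi or without IL-2 and the 3 largest each way with activation are named. Nck1, Eef1a1, Eef1b2, Eef1d, Eef1g and Eef2 were added after their values were seen. So were the tests of the markers Prf1, Il2ra, Cd4, Cd79b, Itgax, Itgam and Pecam1. Alternatives were pseudocounts of 1 and 0.01, median scaling, genes with a mean FPKM of 1 or more, no trend, a replicate block, each replicate left out, the compared groups alone, and fold limits of none and 1.5.

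Deviations from group means of libraries with the same replicate number correlated, across genes, by -0.18 to 0.23 between TCR activated and naïve cells, 0.20 to 0.51 between PI3Kdi and TCR activated cells, and 0.12 to 0.26 between the CTL groups. In the same order, the mean was -0.03, 0.33 and 0.18 for libraries of the same number, and 0.02, -0.16 and -0.09 for those of different numbers. Genes are not independent replicates.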

Additional observations from a re-analysis of the deposited data

How the results depend on the processing

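The 28 members given in full have 82 log2 fold changes over the 3 comparisons. Of these, 76 kept their side of the threshold under all alternatives with the same fold limit, as did 783 of the 791 single values, while 6 values no longer passed and 2 newly passed. The sign changed in 12 values of 8 log2 fold changes, all of 0.12 or less in size, with adjusted p of at least 0.311 with all libraries and 0.547 under the alternative, so that no value with an adjusted p under 0.05 reversed. The values that no longer passed are those of Eif4ebp1 and Eif4e3 with PI3Kdi and of Eif2c4 and Eif5b without IL-2, given above, and the cause was not tested.

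Without a fold limit, the genes called were 47 with activation (8 lower), 8 with PI3Kdi (2 higher, 6 lower) and 43 without IL-2 (10 higher, 33 lower), since the limit itself was removed. At a fold limit of 1.5, 4 genes were lower with activation, and 27 changed without IL-2 (3 higher, 24 lower). With a pseudocount of 1, or with only genes of a mean FPKM of at least 1, 0 genes were higher without IL-2, as Eif2c4 lay at low FPKM. With only the 2 groups compared, 1 gene changed with PI3Kdi and 0 were lower.

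Leave-one-out gave 0 to 1 genes lower with activation, and for PI3Kdi 1 to 1 changed, 0 to 1 higher and 0 to 1 lower. With a replicate block the counts of 29, 2 and 15 changed genes were the same, and of the eIF genes only Eif4enif1 lost a call at any fold, with PI3Kdi.

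Leave-one-out reversed 4 ratio differences, all with overlapping groups: Eif4a1/Eif4a2 (-0.531 to 2.16) and Eif4g1/Eif4g2 (-0.0752 to 0.069) and Eif4e over the 4E-BPs (-0.121 to 0.00977) with PI3Kdi, and Eif1/Eif1b without IL-2 (-0.384 to 0.946). The cause was not tested.

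At the estimated depth, levels under 0.102 FPKM are about 1 read per kilobase, which limits Eif2c4. In the PI3Kdi comparison, with 3 libraries in each group, the any-fold calls of single genes depended on the replicates used. For Eif4g1, Eif6 and Eif4enif1 they also depended on the intensity trend (adjusted p without it 0.0732, 0.0517 and 0.0731). Whether the number of libraries limits this comparison was not tested.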
